A study of Mus musculus with 3 samples.

Results

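The genes described here are 8 regulators of early T-cell and progenitor life: the transcription factor genes Tcf7, Lef1, Bcl11b, Satb1 and Rora, and the cytokine receptor genes Il7r, Kit and Flt3. They were picked by gene symbol, with earlier results of these data known, out of 22350 protein-coding genes annotated on 20 chromosomes of the mouse mm9 build. Each gene was taken with 50 kb on either side of the gene body, and the Runx3-bound regions (peaks) and H3K4me1-marked regions that shared at least 1 bp with that window were listed. The 8 windows held 36 of 15524 Runx3 peaks and 97 of 49902 H3K4me1 regions.

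Tcf7 and Lef1 encode TCF-1 and LEF-1, closely related HMG-box factors that bind DNA with β-catenin or Groucho/TLE partners and direct early T-cell development. Bcl11b locks in T-lineage identity, Satb1 organizes chromatin loops in thymocytes, and Rora encodes the nuclear receptor RORα, which group 2 innate lymphoid cells require. The interleukin 7 receptor chain (Il7r) and the receptor tyrosine kinases Kit and Flt3 carry survival and growth signals in lymphoid and multipotent progenitors, and natural killer cells (NKC) arise from such lymphoid progenitors. Runx3 binds DNA as a partner of CBFβ, and H3K4me1 is a histone mark of enhancers and of the flanks of active promoters.

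The study used resting NKC freshly isolated from the spleens of ICR mice, for which the labels name neither a genotype nor a treatment. The study's methods describe NKC of WT and Runx3-/- spleens without tying these samples to either. The paper treats the resting NKC peaks as Runx3-bound regions, and it uses Runx3-/- cells in expression comparisons with WT. Chromatin was fixed in 1% formaldehyde, sheared to about 300 bp and precipitated with a polyclonal antibody against Runx3 made in the laboratory, with a monoclonal antibody against H3K4me1, or, as the control, rabbit non-immune serum (NIS), in 1 sample each. The labels give NKp46 as the sorting marker while the study's methods give DX5, and the lists do not settle which was used. The data are 1 list of coordinates per antibody with no score, read count or NIS signal, so the depth behind each region is unknown, no spread between replicates exists, and all values below are descriptions without a test. As a check of the cell type, the windows of all 10 NK cell marker genes held a Runx3 peak, with a median of 10.4 peaks per 100 kb, whereas 7 of 10 T-cell, 9 of 10 B-cell and 7 of 10 myeloid marker genes had a peak, with medians of 1.64, 1.41 and 2.26 peaks per 100 kb. None of the T-cell or B-cell marker genes and 1 of the myeloid ones had a peak at the start, against 9 of the NK cell marker genes. Of all protein-coding genes, 62.6% had a peak and 25.8% had one at the start, with a median of 0.880 peaks per 100 kb. The T-cell, B-cell and myeloid medians were thus below that of the NK cell marker genes but above that of all genes.

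The sequences below show what Runx3 peaks at these genes contain. Each is 200 bp of the mm9 reference, plus strand, 5′ to 3′, with matches to the RUNX consensus in capitals. The consensus was searched on both strands as 4 words, namely TGTGGT, then TGTGGC with a final C, then TGCGGT with a central C, and then TGCGGC with both changes, so reverse complements are in capitals as well. For Tcf7 at 7.52 kb, Lef1, Satb1, Il7r, Kit and Flt3 the centre of the peak nearest to the gene start is shown. The centres of the nearest peaks of Bcl11b and Rora, and of the widest Tcf7 peak, held no match, and for these genes the stretch with the most matches in their widest or most match-rich distal peak is shown, chosen after the values were seen. Distances are from the gene start to the peak midpoint, and negative distances lie upstream.
Tcf7 peak at 7.52 kb, chr11:52089060-52089259: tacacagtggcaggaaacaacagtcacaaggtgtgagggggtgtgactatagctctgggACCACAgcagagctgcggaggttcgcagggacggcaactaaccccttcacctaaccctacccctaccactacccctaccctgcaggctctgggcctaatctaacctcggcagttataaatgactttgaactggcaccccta
Tcf7 peak at -35.7 kb, chr11:52131977-52132176: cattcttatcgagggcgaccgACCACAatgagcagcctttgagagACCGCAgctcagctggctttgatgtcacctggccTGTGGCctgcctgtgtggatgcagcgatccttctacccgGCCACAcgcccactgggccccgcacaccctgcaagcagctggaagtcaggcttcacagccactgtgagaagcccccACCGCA
Lef1 peak at 2.81 kb, chr3:130816095-130816294: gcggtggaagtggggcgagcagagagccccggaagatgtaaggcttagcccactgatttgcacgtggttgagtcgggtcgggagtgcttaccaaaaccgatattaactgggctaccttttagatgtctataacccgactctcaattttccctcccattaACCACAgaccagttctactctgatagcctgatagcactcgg
Bcl11b peak at -38.7 kb, chr12:109279763-109279962: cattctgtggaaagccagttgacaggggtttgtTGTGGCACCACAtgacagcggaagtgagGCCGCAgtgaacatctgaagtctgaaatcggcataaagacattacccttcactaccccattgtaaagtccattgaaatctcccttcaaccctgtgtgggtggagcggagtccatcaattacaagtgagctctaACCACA
Satb1 peak at 18.9 kb, chr17:51953665-51953864: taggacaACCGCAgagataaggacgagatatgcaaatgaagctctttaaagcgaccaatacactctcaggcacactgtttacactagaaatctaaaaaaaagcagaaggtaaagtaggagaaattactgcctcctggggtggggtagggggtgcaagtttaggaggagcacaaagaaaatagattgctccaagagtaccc
Rora peak at 666 kb, chr9:69167805-69168004: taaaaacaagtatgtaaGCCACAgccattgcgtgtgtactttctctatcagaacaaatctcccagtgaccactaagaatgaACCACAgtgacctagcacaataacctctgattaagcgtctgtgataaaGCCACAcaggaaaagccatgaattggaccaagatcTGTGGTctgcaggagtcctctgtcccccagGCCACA
Il7r peak at -45.1 kb, chr15:9504615-9504814: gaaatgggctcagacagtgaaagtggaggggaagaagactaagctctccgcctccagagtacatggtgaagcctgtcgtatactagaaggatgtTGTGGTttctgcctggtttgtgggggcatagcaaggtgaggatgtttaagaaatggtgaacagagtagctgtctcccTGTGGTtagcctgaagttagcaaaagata
Kit peak at 87.7 kb, chr5:76058555-76058754: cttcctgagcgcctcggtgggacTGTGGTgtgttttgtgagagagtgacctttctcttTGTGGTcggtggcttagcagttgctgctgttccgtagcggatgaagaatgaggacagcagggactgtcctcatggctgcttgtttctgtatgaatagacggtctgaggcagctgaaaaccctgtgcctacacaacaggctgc
Flt3 peak at -29.6 kb, chr5:148241526-148241725: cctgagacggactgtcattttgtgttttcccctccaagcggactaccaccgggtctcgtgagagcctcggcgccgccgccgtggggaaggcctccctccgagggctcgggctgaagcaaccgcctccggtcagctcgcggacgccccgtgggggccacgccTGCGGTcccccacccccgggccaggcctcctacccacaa

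The number of RUNX words in these stretches ranged from 1 to 5. The Tcf7 stretch at -35.7 kb and the Rora stretch at 666 kb each held 5, the Bcl11b stretch at -38.7 kb held 4, and the Il7r and Kit stretches held 2 each. All 9 stretches lie outside annotated untranslated regions. A match is a description of letters in the reference genome, not a mapped binding site, and the ICR animals may differ from the reference at any base.

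Every member had Runx3 binding in its window, but none had it at the gene start. A Runx3 peak lay in the window of 8 of 8 genes, against 62.6% of all protein-coding genes, and an H3K4me1 region in the window of 8 of 8, against 79.7%. All 8 windows (123.7 to 834 kb) were longer than the median window of 115.4 kb over all genes, and a longer window has more room for a region. A Runx3 peak reached within 1 kb of the gene start in 0 of 8 genes, against 25.8% of all genes. An H3K4me1 region reached within 1 kb of the start in 7 of 8 genes, against 56.8%, and only Rora lacked it. H3K4me1 lay over the start itself in 5 genes, Tcf7, Satb1, Il7r, Kit and Flt3, while the gap from the start to the nearest region was 0.319 kb at Lef1 and 0.217 kb at Bcl11b. The starts of 7 genes were thus at or beside H3K4me1 with no Runx3 peak within 1 kb.

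The transcription factor genes and the receptor genes differed in where Runx3 lay. All 5 transcription factor genes had a peak overlapping the gene body and none of the 3 receptor genes did, against 33.6% of all genes. The factors held 32 peaks, of which 23 had their midpoint in the gene, 8 upstream and 1 downstream, or 2.04 peaks per 100 kb. The receptors held 4 peaks, 3 upstream and 1 downstream, or 0.842 per 100 kb. Tcf7 alone held 11 of the 32 factor peaks, and the receptor gene Flt3 (1.18 per 100 kb) was above the factor gene Rora (1.08). The factor genes were 30.8 to 734 kb long and the receptor genes 23.7 to 81.8 kb, and a longer gene body has more room for a peak. With 5 and 3 genes and a single list, the difference between the groups has no error estimate.

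**Figure D1:**
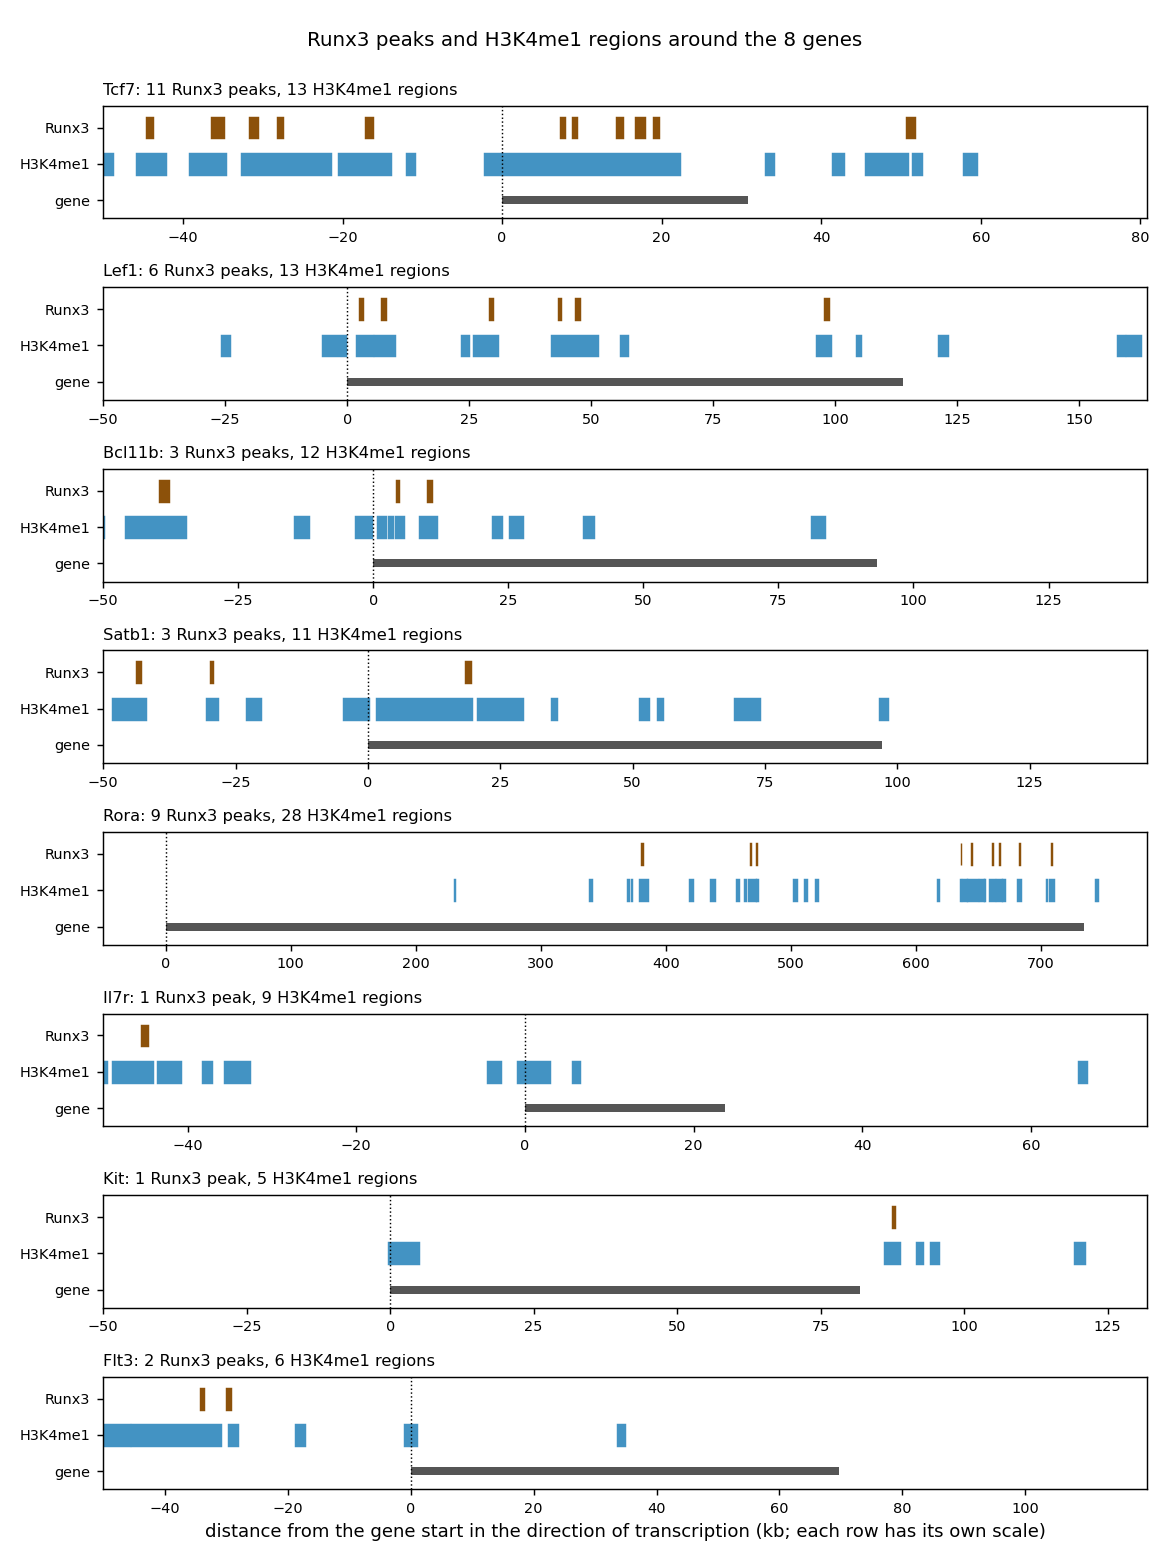
Maps of the 8 windows, with the distance from the gene start in kb in the direction of transcription on the x axis (each row to its own scale), the gene body in grey, H3K4me1 regions in blue and Runx3 peaks in brown. No brown bar reaches within 1 kb of a dotted line (the gene start), and the 3 receptor genes have no brown bar above the gene body.

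Tcf7 (ENSMUSG00000000782, chr11:52065873-52096681, minus strand) carried the most Runx3 peaks of the 8 genes. Its window of 130.8 kb held 11 peaks, or 8.41 per 100 kb, and 0.993% of all protein-coding genes were at least as dense. H3K4me1 regions covered 49.2% of the window, a share reached by 0.796% of genes. The next highest members had 2.81 peaks per 100 kb (Lef1) and 27.5% coverage (Satb1), while the NK cell marker genes had medians of 10.4 and 59.8%.

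The Tcf7 peaks formed an intragenic and an upstream group. The 5 intragenic peaks lay in introns at 7.52, 9.08, 14.7, 17.2 and 19.3 kb and spanned 12.5 kb, all under a single H3K4me1 region of 22283 bp that also covered the gene start and was the widest at any of the 8 genes. The 5 upstream peaks lay at -16.6, -27.8, -31.2, -35.7 and -44.2 kb, under 4 H3K4me1 regions, of which the one of 11247 bp held 2 peaks. The peak at -35.7 kb was the widest at Tcf7, with 1581 bp and 7 RUNX words, 5 of them in the stretch printed above. The peak at -44.2 kb was nearer to the start of Vdac1, which encodes a mitochondrial channel, and the 1 downstream peak, at 51.2 kb, covered the start of Skp1a, a ubiquitin ligase subunit. Without these 2 peaks, 9 peaks had the Tcf7 start as the nearest gene start.

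Lef1 (ENSMUSG00000027985, chr3:130813389-130927274, plus strand), the close relative of Tcf7, had 6 peaks, all in introns of the gene. They lay at 2.81, 7.43, 29.5, 43.6, 47.1 and 98.3 kb, or 2.81 per 100 kb, and 18.9% of genes were at least as dense. The peaks at 43.6 and 47.1 kb shared an H3K4me1 region of 9567 bp, and the latter held 6 RUNX words. No Runx3 peak lay upstream within 50 kb, so the upstream group seen at Tcf7 had no counterpart in this window. The first intragenic peak came within 0.044 kb of a downstream start annotated for a shorter protein-coding transcript (Lef1-002, 2.33 kb into the gene). H3K4me1 covered 20.2% of the Lef1 window in 13 regions, as many regions as at Tcf7.

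Bcl11b (ENSMUSG00000048251, chr12:109148613-109241812, minus strand) had 3 peaks, or 1.55 per 100 kb. Those at 4.52 and 10.4 kb lay in introns and held 2 and 1 RUNX words. The upstream peak at -38.7 kb, in intergenic DNA, was 1768 bp wide, the widest of all 36, and held 9 RUNX words within an H3K4me1 region of 11270 bp. Bcl11b had 12 H3K4me1 regions, 9 of them without a Runx3 peak, and they covered 17.6% of the window. H3K4me1 flanked the start on both sides, with gaps of 0.217 kb upstream and 0.782 kb downstream.

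Satb1 (ENSMUSG00000023927, chr17:51875512-51972615, minus strand) also had 3 peaks, or 1.52 per 100 kb, a density close to that of Bcl11b. The intragenic peak at 18.9 kb sat at the far end of an H3K4me1 region of 18184 bp, the second widest at the 8 genes, and came within 0.49 kb of the start of the internal protein-coding transcript Satb1-003. The other two peaks, at -29.5 and -43.3 kb, were intergenic. A neighbouring intragenic region of 8645 bp was the widest H3K4me1 region without Runx3 at any of the 8 genes. H3K4me1 covered 27.5% of the window, the second highest share after Tcf7, so Satb1 ranked higher by H3K4me1 than by Runx3.

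Rora (ENSMUSG00000032238, chr9:68501593-69236053, plus strand) is the longest gene of the set, with 734 kb, and both Runx3 and H3K4me1 lay in its distal part. The first H3K4me1 region began 230.1 kb into the gene, and no region or peak lay within 50 kb of the gene start. All 9 Runx3 peaks were intragenic, at 381, 468, 472, 636, 644, 661, 666, 683 and 709 kb. The peak at 636 kb covered the start of the shorter protein-coding transcript Rora-002, with its midpoint 0.028 kb from that start, and 5 more peaks followed it towards the gene end. The 8 other peaks lay in introns without an annotated exon. Rora had the most H3K4me1 regions of the set, 28, but in a window of 834 kb this gave 1.08 Runx3 peaks per 100 kb and 9.68% under H3K4me1, values that 41.8% and 42.3% of all genes reached.

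Measured to gene starts, all 9 Rora peaks were nearer to Narg2, which begins past the 3′ end of Rora, because the annotated Rora start is far away. Measured to all annotated transcript starts, all 9 were nearest to a Rora transcript. The peak at 666 kb held 9 RUNX words, as many as the widest Bcl11b peak. The peaks at 468 and 709 kb held none, and they were the only 2 of the 36 without a RUNX word.

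Il7r (ENSMUSG00000003882, chr15:9435916-9459631, minus strand) had 1 peak in its window, at -45.1 kb, or 0.808 per 100 kb. This intergenic peak of 903 bp held 4 RUNX words and lay in an H3K4me1 region of 4913 bp. The start of Il7r was covered by an H3K4me1 region of 3913 bp without Runx3, and 9 regions covered 16.4% of the window. The region next to the bound one ran past the window and held a further peak at -51.2 kb. Both peaks lay near the 3′ end of the neighbouring gene Spef2, and no other gene start was nearer to the peak in the window than that of Il7r.

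Kit (ENSMUSG00000005672, chr5:75970941-76052747, plus strand) had the lowest Runx3 density and the lowest H3K4me1 coverage of the 8 genes. Its single peak, of 558 bp the narrowest of the 36, lay 87.7 kb from the start and 5.91 kb past the gene end, in a 2746 bp H3K4me1 region. The density was 0.550 per 100 kb, below the median of 0.880 over all genes, and H3K4me1 covered 7.06% of the window, against a median of 7.49%. The Kit start nevertheless lay under an H3K4me1 region of 5373 bp, the widest of its window, and the rest of the gene body held no region. The 2 RUNX words of the peak were both TGTGGT and lay in the printed stretch.

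Flt3 (ENSMUSG00000042817, chr5:148142317-148212065, minus strand) had 2 peaks, at -29.6 and -34.0 kb, or 1.18 per 100 kb. Both were nearer to the start of Pan3, a gene for a subunit of a deadenylase complex, at 0.53 and 3.87 kb. The H3K4me1 region of 14700 bp in this window lay wholly in Pan3. At Flt3 itself a region of 2157 bp covered the start and a region of 1200 bp lay in the gene body, and neither held Runx3. With Pan3 taken as their gene, no Runx3 peak was left for Flt3.

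**Figure D2:**
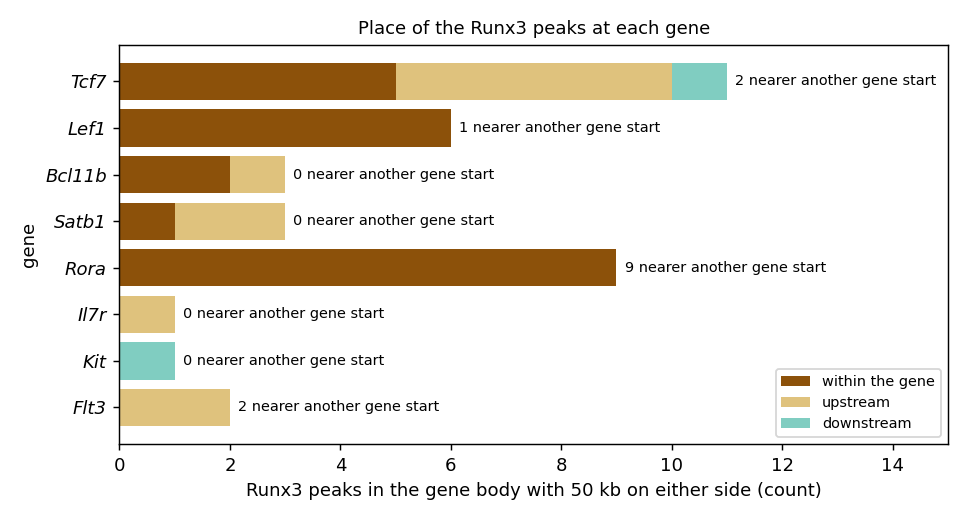
Number of Runx3 peaks in each window (x axis, count) by place relative to the gene, with the number nearer to the start of another protein-coding gene printed at the end of each bar. All 9 Rora peaks and both Flt3 peaks were nearer to another gene start, and Tcf7 had 9 of its 11 nearest to its own.

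Set against all 22350 protein-coding genes, the members were mostly moderate by Runx3 density and mostly in the upper part of the range by H3K4me1 coverage. The median gene had 0.880 Runx3 peaks per 100 kb of window (quartiles 0 and 2.25) and 7.49% of its window under H3K4me1 (quartiles 1.5 and 16.2%). By Runx3 density the order was Tcf7, Lef1, Bcl11b, Satb1, Flt3, Rora, Il7r and Kit. The first 6 exceeded the median gene and the first 2 the upper quartile. By H3K4me1 coverage the order was Tcf7, Satb1, Lef1, Bcl11b, Il7r, Flt3, Rora and Kit. The first 7 exceeded the median and the first 5 the upper quartile, with Il7r (16.4%) next to that limit. Bcl11b and Satb1 were next to each other in density, as were Flt3 and Rora, and no spread is available to order such neighbours. Window length moves the counts, since a peak is counted anywhere in the gene body, and the median window was 115.4 kb.

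**Figure D3:**
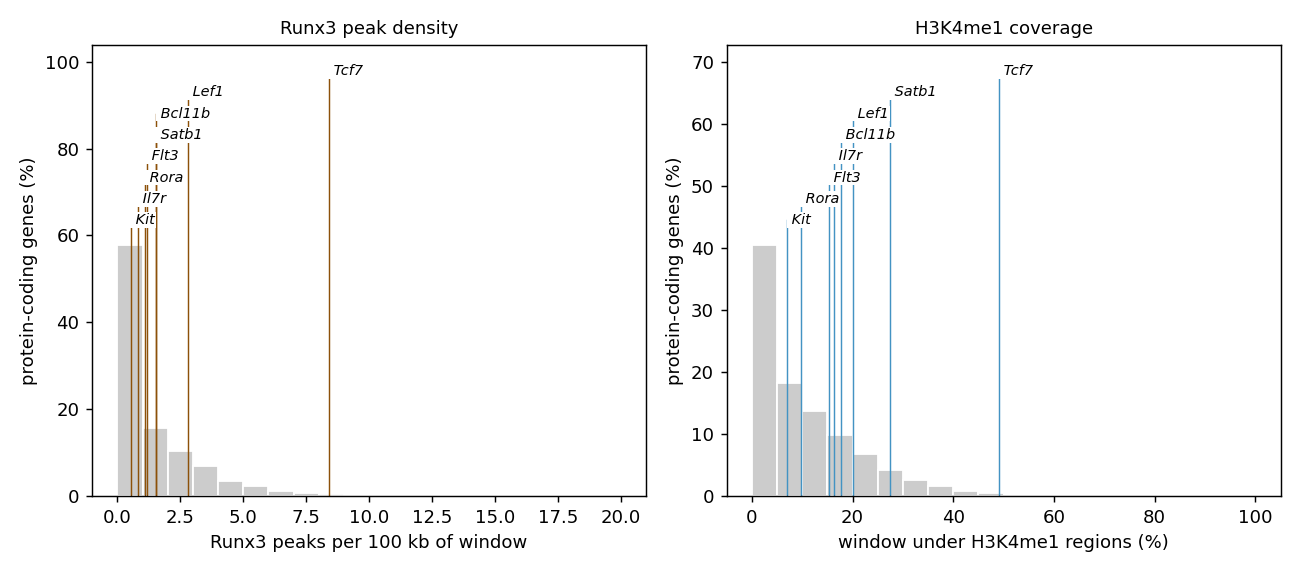
Grey bars give the share of all protein-coding genes (y axis, %) by Runx3 peaks per 100 kb of window (left) and by the percent of the window under H3K4me1 (right), with genes above the axis range in the last bar, and lines mark the 8 members. Tcf7 stood apart at 8.41 peaks per 100 kb and 49.2%, while Kit lay below the all-gene medians of 0.880 and 7.49%. The heights of the lines carry no value.

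All 36 peaks (100%, 95% Wilson interval 90.4 to 100%) overlapped an H3K4me1 region, against 95.7% of all Runx3 peaks. The interval covers counting error over peaks only, and peaks of a gene are not independent. The midpoint lay in a region for 35 peaks (97.2%), against 83.6% of all peaks, the exception being the peak at the Skp1a start. Of all peaks, 31.7% lay under 1 kb from a gene start, against 2 of the 36 member peaks. The midpoint shares were not split by that distance. Of the 36 peaks, 33 lay wholly under H3K4me1. The other three were the peaks by the starts of Skp1a, Rora-002 and Pan3, which were covered for 51.6%, 66.0% and 63.5% of their length, and their GC content of 61.6%, 66.0% and 64.6% was above the member median of 49.0%. The Lef1 peak beside the start of Lef1-002 lay wholly under H3K4me1, with a GC content of 43.7%.

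Conversely, Runx3 peaks fell in 32 of the 97 H3K4me1 regions (33.0%, interval 24.4 to 42.8%), while over the whole list 28.6% of regions had a peak. The 32 regions with Runx3 were wider, with a median of 4571 bp against 1817 bp for the 65 without, and a wider region has more room for a peak. H3K4me1 without Runx3 was thus the commoner state at these genes, as it was over the whole list. The shares were 7 of 13 regions at Tcf7, 5 of 13 at Lef1, 3 of 12 at Bcl11b, 3 of 11 at Satb1, 9 of 28 at Rora, 2 of 9 at Il7r, 1 of 5 at Kit and 2 of 6 at Flt3. Member peaks had a median width of 856.5 bp (558 to 1768 bp), close to the 825 bp of all peaks.

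Few member peaks lay close to a gene start. By distance to the nearest start of any protein-coding gene, 2 peaks were under 1 kb away, 3 between 1 and 5 kb, 21 between 5 and 50 kb and 10 over 50 kb, while 31.7% of all peaks were under 1 kb. Of the 10 over 50 kb away, 8 were Rora peaks measured to the Narg2 start, and by the nearest start of any transcript of a protein-coding gene only 4 peaks (3 in Rora and 1 in Lef1) were over 50 kb away. The 2 proximal peaks belonged to the neighbours Skp1a and Pan3. By distance to the start of the member itself, 0 were under 1 kb, 2 between 1 and 5 kb (Lef1 and Bcl11b), 22 between 5 and 50 kb and 12 beyond. With every annotated transcript start considered, 3 of 8 genes (Lef1, Satb1 and Rora) had a peak within 1 kb, against 28.2% of all genes, so the absence of Runx3 from starts held for the 5′-most start and not for internal starts. Only 2 of the 36 peaks touched an annotated exon of a protein-coding gene, those at Skp1a and at Rora-002, and 22 lay in introns of a member.

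The RUNX words were present in 34 of 36 member peaks (94.4%, interval 81.9 to 98.5%), against 93.3% of all Runx3 peaks, with a median of 3 and 2 words per peak. In the central 300 bp, a window of equal length in every peak, the shares were 77.8% and 79.4%. The most frequent word was TGTGGT, in 75% of member peaks and 65.5% of all peaks. The numbers of RUNX words summed over the peaks were 39 at Tcf7, 19 at Lef1, 12 at Bcl11b, 8 at Satb1, 26 at Rora, 4 at Il7r, 2 at Kit and 3 at Flt3.

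Other words searched on both strands included that recognized by TCF-1 and LEF-1, the products of Tcf7 and Lef1. The TCF/LEF word CTTTGAT or its variant CTTTGAA occurred in 19 of 36 peaks (52.8%, interval 37.0 to 68.0%), against 25.4% of all peaks, and in at least 1 peak of each of the 8 genes. They occurred in 7 of 11 Tcf7 peaks, and in 12 of the 25 peaks of the other genes. Among peaks over 5 kb from any gene start the shares were 51.6% (16 of 31) and 29.2%, and in the central 300 bp of all member peaks they were 16.7% and 9.39%. In the central 200 bp, 3 member peaks held the word (8.33%, interval 2.87 to 21.8%), against 6.38% of all peaks. The peaks at -31.2 kb of Tcf7 and 644 kb of Rora held 3 of these words each. The members' median GC content was 49.0% against 50.7% for all peaks, and 49.1% against 47.6% among peaks over 5 kb from a gene start. Words in a peak do not show that TCF-1 or LEF-1 bound there.

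The ETS word AGGAAGT or its variant CGGAAGT occurred in 14 peaks (38.9%, against 41.8% of all peaks), 6 of them at Rora. The T-box word GGTGTGA occurred in 9 peaks (25% against 16.7%). The AP-1 word TGACTCA or its variant TGAGTCA occurred in 1 peak, that at -16.6 kb of Tcf7 (2.78%, interval 0.492 to 14.2%, against 16.5%). In the central 300 bp the shares of member and of all peaks were 19.4% and 25.8% for ETS, 8.33% and 8.35% for T-box, and 2.78% and 7.61% for AP-1. These 5 families were compared without a test, and peaks of a gene share sequence context and base composition.

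**Figure D4:**
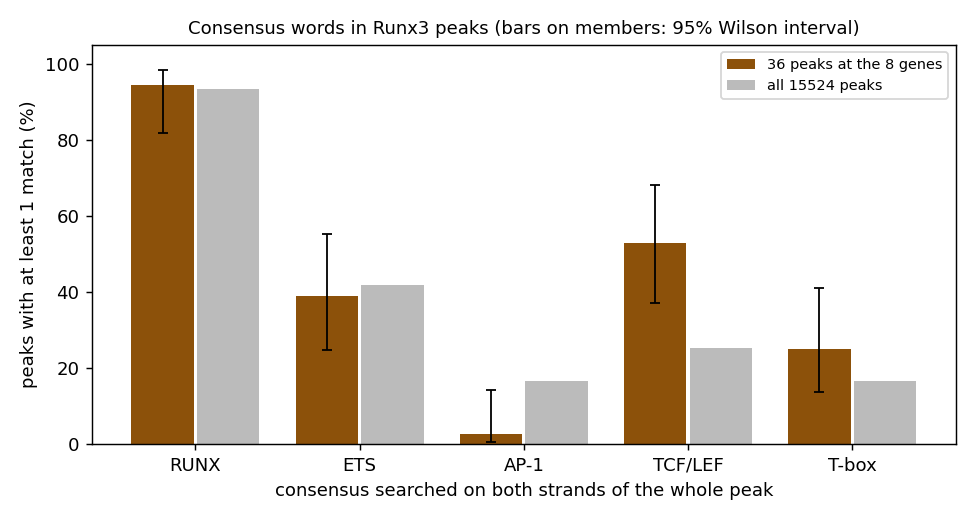
Percent of Runx3 peaks with at least 1 consensus word (y axis) for 5 motif families (x axis), in the 36 member peaks (brown, with 95% Wilson intervals) and in all 15524 peaks (grey). RUNX stood at 94.4 and 93.3%, TCF/LEF at 52.8 and 25.4% and AP-1 at 2.78 and 16.5%.

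Genes of the wider pathways included some without any Runx3 peak and some with a peak at the start, neither of which occurred among the 8 members, and over all protein-coding genes 62.6% had a peak and 25.8% had one at the start. Of 24 other T-lineage and thymic genes matched by symbol, 21 had a Runx3 peak in the window, 6 at the start, with a median of 3.19 peaks per 100 kb against 1.35 for the 8 members. Ikzf1, which encodes Ikaros, had the most, 13, and Ets1 and Klf2 had 8 each, while Notch3 and the recombinase genes Rag1 and Rag2 had none. Of 19 other progenitor and stem cell genes, 12 had a peak, 2 at the start, with a median of 0.889 per 100 kb. Lyl1 had 8 and Hhex 4, and Gata2, Tal1, Mycn, Mecom, Bcl11a, Kitl and Hlf had none. Of 15 innate lymphoid and NK lineage factors, 14 had a peak, 3 at the start, with a median of 3.14 per 100 kb. The T-bet gene Tbx21 and Ikzf3 had 12 each, Irf2 had 10, and Ahr had none. Some genes of these lists are neighbours and share peaks, and a few genes stand in more than 1 list.

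Among 18 signalling partners of the 3 receptors, 16 had a Runx3 peak and 10 had it at the start, against 62.6% and 25.8% of all protein-coding genes. None of the 3 receptor genes had it at the start. Bcl2, the survival factor induced downstream of the interleukin 7 receptor, held 11 peaks, Grb2 and Pik3r1 held 9 each, and Jak1 held 8. Jak3 and Stat5b held 6 each, of which 0 and 4 overlapped the gene body. The cytokine genes Il7 and Kitl, the ligands of 2 of the receptors, had none. Flt3l, the ligand gene of the third, held 7 peaks and had a peak at its start. Among 12 partners and co-factors of TCF-1 and LEF-1, 11 had a peak, 5 at the start, to be read against the same shares of all genes. The corepressor genes Tle2 and Aes held 10 and 9 peaks in their windows, of which 0 and 2 overlapped the gene body. Ctnnb1, which encodes β-catenin, held 1, and the Wnt target Axin2 held none.

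Of 10 close relatives of the members, 6 had a peak, a share near the 62.6% of all protein-coding genes, with a median of 0.514 per 100 kb against 0.880 for all genes. Tcf7l1 held 5 peaks in a window of 263 kb and Tcf7l2 held 1 in 292 kb, so that in peaks per 100 kb (1.90 and 0.343) both were below Tcf7 and Lef1. Bcl11a and Rorb, relatives of Bcl11b and Rora, held none, although H3K4me1 regions were present in their windows (9 and 1). Kdr, a receptor tyrosine kinase gene located next to Kit, held none. Crlf2, whose product pairs with the Il7r product, held 3 Runx3 peaks and no H3K4me1 region.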

How the data were processed

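According to the labels and methods, 40 bp reads from an Illumina Genome Analyzer IIx were processed with CASAVA 1.7, aligned to mm9 with ELAND, and enriched regions were called with MACS against the NIS library on the joined reads of the biological repeats. The deposited files used here hold the coordinates of the regions called by the authors, 1 list for Runx3 and 1 for H3K4me1; columns of other samples numbered 0. The Runx3 list holds 15524 regions, the number the paper reports for resting NKC, whose peaks its methods describe as called on joined reads. The series itself holds a single sample of each antibody. For H3K4me1, which reads were used cannot be read from the list.

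The genes and the lists of other genes were chosen with earlier results of these data known. Gene positions came from GENCODE M1 (same build, chromosome lengths compared), and sequences from the mm9 genome. Windows were the gene body with 50 kb on either side, overlap was at least 1 bp, and a peak at a start reached within 1 kb of it. Other genes were named where their start was nearer to a member peak, or where a list gene had no Runx3 peak, 10 or more, or was among the 2 with the most in its list. Jak1, Jak3, Stat5b, Flt3l, Ctnnb1, Tcf7l2, Spef2 and the 3 stretches shown for their many RUNX words were chosen after their values were seen. Ptcra and Spi1 were not matched by symbol, and the values of some list genes are not reported here. Scripts used Python 3.11.15, numpy 2.4.6, scipy 1.17.1 and matplotlib 3.10.9, and were tested on simulated data. No test was run, since each antibody had 1 list; Wilson intervals (95%) cover counting error over peaks only.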

Additional observations from a re-analysis of the deposited data

How the results depend on the processing

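The 7 summary values were recomputed 43 times in all under other settings, 4 of these times under settings added after seeing the data, and 27 of the recomputed values counted as the same (for counts, within 1.5 times). With the gene body alone, 5 genes had a Runx3 peak, and there were 23 peaks, 56 H3K4me1 regions and 15.7% of the summed windows under H3K4me1, against 8, 36, 97 and 16.4%. Flanks of 10 and 100 kb gave 15.8% and 15.2% under H3K4me1. The flank of 10 kb left 6 genes with a Runx3 peak. A fixed window of 50 kb on either side of the start also left 6, as did only peaks nearest to the member's gene start. A fixed window of 50 kb on either side of the start gave 51 H3K4me1 regions and 27.0% coverage, with no region of Rora inside it. Only regions wider than the median of their list left 21 peaks, 62 H3K4me1 regions, 14.1% coverage and a RUNX word in 100% of peaks, and the central 200 bp held a RUNX word in 72.2%. Only peaks nearest to the member's gene start numbered 22. With any transcript start 3 genes had Runx3 within 1 kb, and within 2.5 kb of the gene start 1 gene had it. The added alternatives left the values the same by these limits; domains extended to neighbouring genes gave 7 genes and 47 peaks, with none left at Flt3. No paired analysis was possible because each antibody had 1 list. Coordinates carry no depth, so weak and strong peaks count alike, a gene without a peak may be bound below the calling threshold, and neither binding strength nor expression of the 8 genes can be read from them.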

Other observations

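Runx3 peaks beyond the 50 kb windows were counted by domains that ran from each gene to the promoters of its neighbours, up to 1000 kb, an alternative added after seeing the data. It gave 14 further peaks, all 14 over H3K4me1. Lef1 gained 4 upstream peaks, at -53.1, -96.1, -163 and -216 kb, where its 50 kb window had none. Satb1 gained 5, of which 3 lay close together at -316, -329 and -335 kb, 1 at -58.5 kb and 1 at 437 kb. Kit gained 3, at -411, 217 and 252 kb, Tcf7 gained 1 at -58.0 kb and Il7r gained the 1 at -51.2 kb. Bcl11b and Rora gained none, and Flt3 kept none because its 2 peaks fell to Pan3. Which gene such distant regions act on cannot be read from position.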
